A study of Mus musculus with 35 samples.

Results

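10 genes of the complement system were followed in mouse lung: the central component C3, factor B (Cfb), C2 and C4b, the 3 chains of C1q (C1qa, C1qb, C1qc), the C1 inhibitor gene Serping1, and the anaphylatoxin receptors C3ar1 and C5ar1. All array probes whose RefSeq accession maps to these symbols were taken, which gave 10 of the 20660 genes named on the array, with 12 of its 55681 probes; C3 and Serping1 have 2 probes each and the other 8 genes 1 each. A probe was tested if its lung signal lay well above background on at least 3 of the 5 arrays of some group, and 10 of the 10 genes passed, within 25534 features tested on the whole array. C4b has a near-identical copy, C4a, to which no probe of the array mapped, so its values are uncertain as to which of both genes they measure.

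Lung RNA was measured on 35 arrays, 5 in each of 7 groups, from female C57BL/6 mice aged 5 to 7 weeks that had been dosed once, by intratracheal instillation, 24 h earlier. The treated groups were NRCWE-043, NRCWE-044 and NRCWE-045, each at 18 µg and at 54 µg in a volume of 40 µl, and the control group had 0 µg. The series title calls the materials nanomaterials and states that they were to be ranked by how strongly they perturb lung pathways. What else the controls received is not stated, RNA came from random lung sections, and the labels leave unsaid whether each array is a mouse of its own, so the p-values reflect only how these samples vary, which may be partly technical. Each array set lung RNA (Cy5) against a universal reference RNA from 11 mouse cell lines (Cy3). A level is the log2 ratio of lung to reference for 1 probe, which can be compared between arrays but not between genes, and a change is the difference of 2 group means on that scale. In bulk lung, a shift in the number of cells of a type cannot be told apart from a shift in RNA per cell.

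Complement is a cascade of blood and tissue proteins that coats particles and microbes and draws in leukocytes. The classical pathway starts when C1q binds a target and the attached proteases cleave C4 and C2; the alternative pathway starts from C3 itself and is amplified by factor B. Both form enzymes that cleave C3, and the released fragments C3a and C5a act on the receptors C3ar1 and C5ar1. The liver makes most circulating complement, while epithelial cells and macrophages of the lung also produce components, C1q being mainly a macrophage product. Cfb and C2 are neighbours on chromosome 17, and the C1q chain genes lie side by side on chromosome 4.

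Promoter windows, from 250 bases before to 50 after the annotated start, were at hand for 5 of the 10 genes, from RefSeq on build GRCm38.p6. The windows of the 4 of these genes that passed the test in at least 1 comparison are shown with the matches to inflammatory motifs that a search found in them; each lies on the minus strand and is written 5′ to 3′. Searched on both strands were the NF-κB motif, the gamma-interferon site TTCNNNGAA, the interferon element core GAAANNGAA, the AP-1 motif TGANTCA and the C/EBP motif TTGCNNAA, and capitals mark a match. The C3 window, chr17:57228087-57228386, held a C/EBP match from -45 to -38 relative to the start, the C1qc window, chr4:136892865-136893164, an NF-κB match from -41 to -32, and the C3ar1 window, chr6:122856108-122856407, an AP-1 match from -22 to -16. The C1qb window, chr4:136886151-136886450, held none of these letters. The window of C5ar1, which passed in no comparison and is not shown, also held a match, to the interferon core from -66 to -58.
C3: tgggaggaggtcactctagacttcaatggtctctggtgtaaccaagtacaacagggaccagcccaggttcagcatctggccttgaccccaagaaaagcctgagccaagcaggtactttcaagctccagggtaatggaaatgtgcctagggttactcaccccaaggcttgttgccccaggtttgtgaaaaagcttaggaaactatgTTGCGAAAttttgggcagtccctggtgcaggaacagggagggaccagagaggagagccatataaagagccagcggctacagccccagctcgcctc
C1qb: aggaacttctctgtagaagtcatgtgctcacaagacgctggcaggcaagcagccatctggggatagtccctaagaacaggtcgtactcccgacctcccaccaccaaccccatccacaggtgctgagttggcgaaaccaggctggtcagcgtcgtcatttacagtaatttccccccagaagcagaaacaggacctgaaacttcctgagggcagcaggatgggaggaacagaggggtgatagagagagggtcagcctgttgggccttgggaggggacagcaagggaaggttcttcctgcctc
C1qc: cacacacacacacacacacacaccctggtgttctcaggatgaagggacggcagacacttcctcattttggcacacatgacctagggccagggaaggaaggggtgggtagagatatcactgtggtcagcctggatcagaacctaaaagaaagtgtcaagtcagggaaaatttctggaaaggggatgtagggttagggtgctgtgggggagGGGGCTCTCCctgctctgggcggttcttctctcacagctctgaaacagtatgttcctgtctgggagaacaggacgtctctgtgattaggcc
C3ar1: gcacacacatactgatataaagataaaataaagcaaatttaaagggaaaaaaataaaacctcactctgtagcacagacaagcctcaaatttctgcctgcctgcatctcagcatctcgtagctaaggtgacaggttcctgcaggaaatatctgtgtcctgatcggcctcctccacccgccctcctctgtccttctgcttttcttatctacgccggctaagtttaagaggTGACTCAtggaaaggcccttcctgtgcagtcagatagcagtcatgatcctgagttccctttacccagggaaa
Among 32851 such windows of mouse genes, 10.8% held the C/EBP motif, 8.46% the NF-κB motif and 7.81% the AP-1 motif, against 8.3% for the gamma-interferon site and 8.56% for the interferon core. The matches did not overlap one another. They describe letters only and say nothing about binding in these lungs.

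Across the arrays 44.3 to 69.9% of probes lay well above background in the lung channel, at median signals of 85.5 to 345.5, and 0 spots of the complement probes were saturated. Arrays are called here by the sample numbers of their labels, 1 to 35. The arrays lay on 7 slides, and controls on 4 of them. Some arrays stood apart. Control array 29 had Saa3, an acute phase gene, at 1.31, against -4.06 to -3.11 on control arrays 2, 7, 15 and 30. Control array 7 had Hmox1, which encodes haem oxygenase, at -1.43, against -4.07 to -3.21 on the other 4 controls. On the NRCWE-043 arrays Saa3 ran from -1.39 to 5.16 and Hmox1 from -1.45 to -0.12. On the NRCWE-044 and NRCWE-045 arrays Saa3 ran from -3.67 to 5.59 and Hmox1 from -4.11 to -2.37. Each of these 2 controls thus had a value within the range of treated arrays. Both stayed in the control group unless stated, and the cause was not tested. The C3 and C1qc probes are each spotted 10 times, and the SD of their repeated spots, at most 0.187 on 32 arrays, was larger on NRCWE-043 arrays 5 and 10 and NRCWE-044 array 6, all at 18 µg, where it was 0.634, 0.530 and 0.290 for C3 and 0.708, 0.645 and 0.374 for C1qc. The mean log2 ratio of 8 adipocyte markers (such as Adipoq and Plin1) exceeded 2 on NRCWE-044 arrays 4 and 34 and NRCWE-043 arrays 9 and 19 at 54 µg and on NRCWE-044 arrays 6 and 23 at 18 µg, against at most 1.75 on the other 29 arrays.

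**Figure D1:**
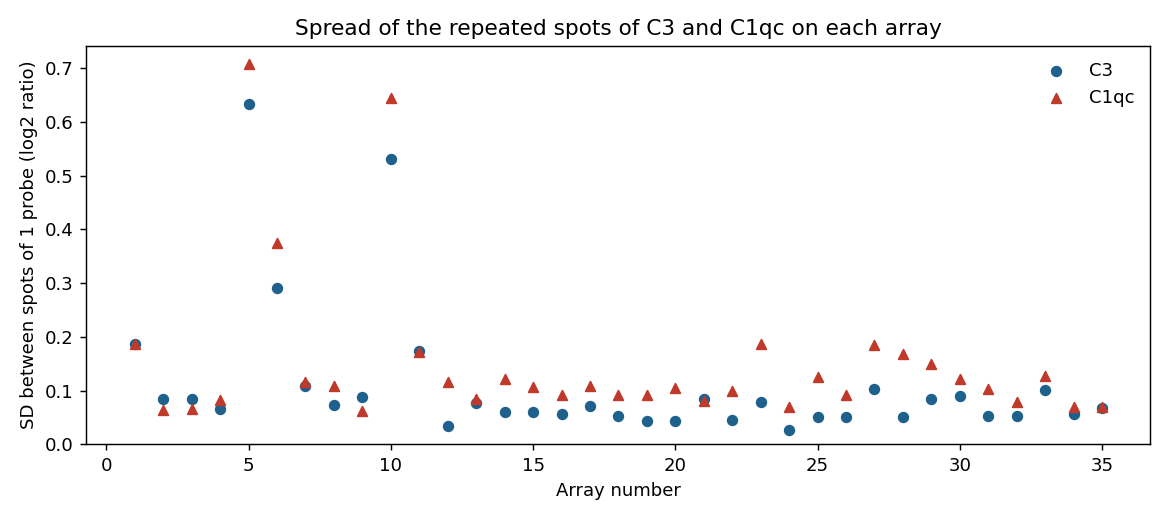
SD of the log2 ratio over the 10 repeated spots of the C3 and C1qc probes (y) on each array, by array number (x). Arrays 5, 10 and 6 reach 0.634, 0.530 and 0.290 for C3, and the other 32 arrays stay at or below 0.187 for both probes.

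C3 and Cfb carried the clearest differences. Both were higher than control in lungs given 54 µg of each of the 3 materials, by 2.28- to 3.75-fold for C3 and by 2.03- to 3.00-fold for Cfb. For both genes, the NRCWE-045 call was lost more often than the others when processing or arrays were varied. C1qb and C3ar1 were also higher with NRCWE-043 and NRCWE-044 at 54 µg, by 1.43- to 1.91-fold. None of the 10 genes passed the test against control at 18 µg. The remaining genes, C2, C4b, C1qa, C1qc, Serping1 and C5ar1, passed in none of the 6 comparisons with control.

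**Figure D2:**
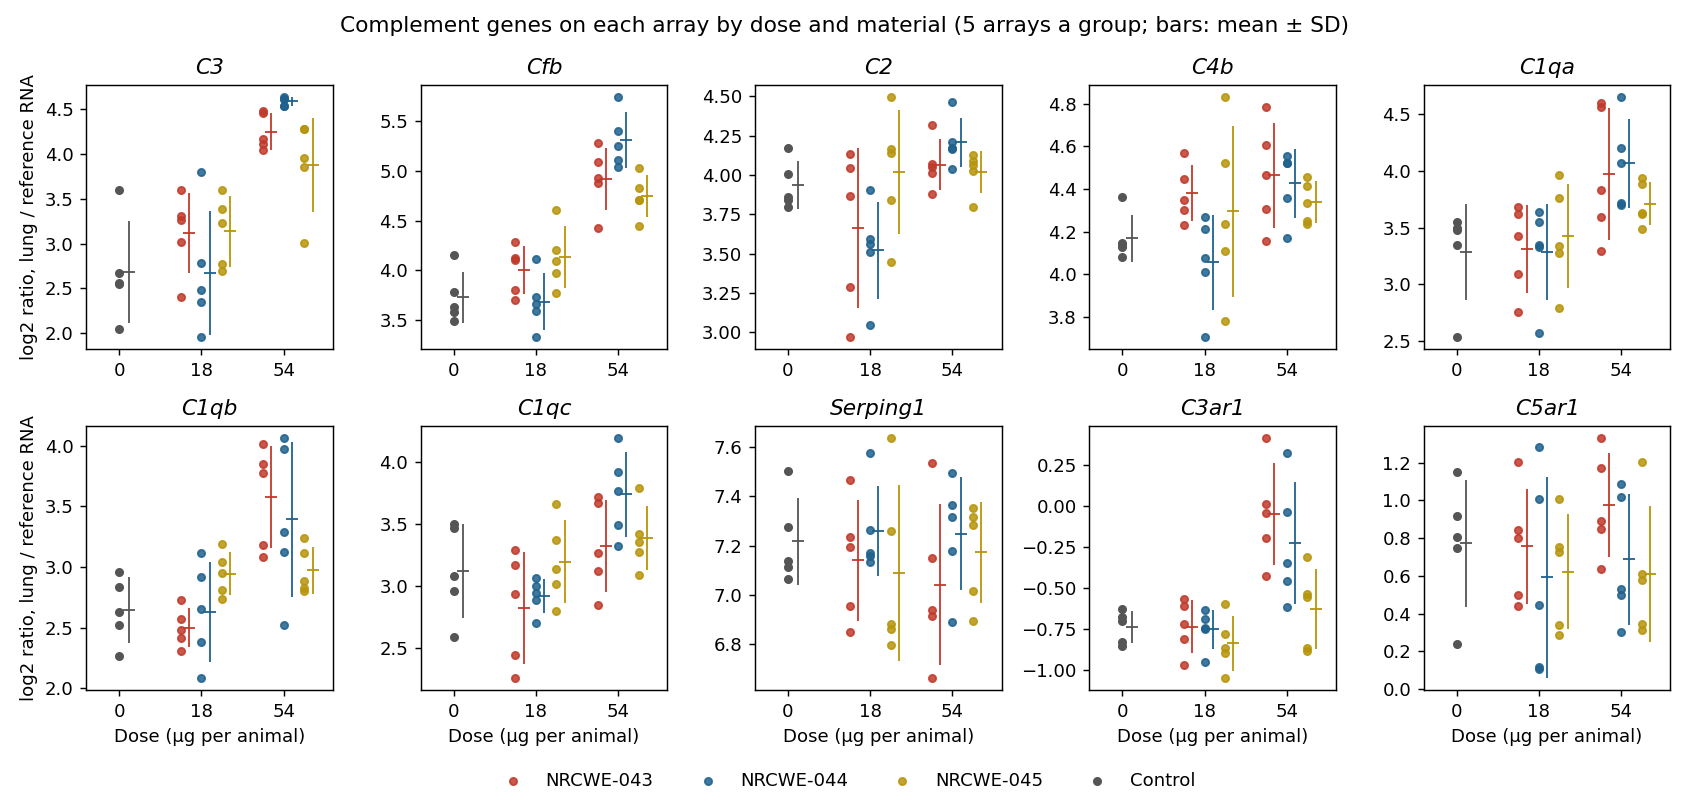
Log2 ratio of lung to reference RNA for each complement gene on each array (points) against the dose in µg per animal (0 is control), with bars for mean ± SD, n = 5 arrays a group. For Cfb the 54 µg arrays, from 4.43 to 5.75, all lie above the controls, whose highest value is 4.15, while Serping1 lies within 6.66 to 7.64 on the arrays of all 7 groups.

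C3, cleaved by both pathways to mark targets and release C3a, had log2 ratios of 4.04, 4.11, 4.48, 4.46 and 4.17 on the 5 arrays of NRCWE-043 at 54 µg, 4.62, 4.64, 4.53, 4.54 and 4.62 with NRCWE-044 at 54 µg, and 3.86, 4.28, 3.96, 4.28 and 3.00 with NRCWE-045 at 54 µg, against 2.56, 2.04, 2.55, 3.60 and 2.67 on control arrays 2, 7, 15, 29 and 30. All arrays of NRCWE-043 and NRCWE-044 lay above every control, whereas with NRCWE-045 array 35, at 3.00, lay below control array 29. The group means were 4.25 ± 0.20, 4.59 ± 0.048 and 3.88 ± 0.52 (SD, n = 5 each) for NRCWE-043, NRCWE-044 and NRCWE-045 at 54 µg, against 2.68 ± 0.57 (SD, n = 5) in controls. Relative to control C3 rose by 1.57 (SE 0.27, adjusted p = 0.00027) with NRCWE-043, by 1.91 (SE 0.27, adjusted p = 5.6e-05) with NRCWE-044 and by 1.19 (SE 0.27, adjusted p = 0.041) with NRCWE-045, in linear models fitted across all features with limma and adjusted by the Benjamini-Hochberg method. The second C3 probe gave 1.41, 1.87 and 1.13, with adjusted p of 0.00015, 2e-05 and 0.026. Control array 29, which had high Saa3, was also the highest control for C3 and for Cfb. Without control arrays 7 and 29, C3 rose by 1.66, 2.00 and 1.28 (adjusted p 0.00018, 0.00016 and 0.036) with NRCWE-043, NRCWE-044 and NRCWE-045.

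The C3 probe was very bright, with median lung signals of 23389 to 240952 over the arrays, and its spread depended on the normalization. Before normalization, C3 log2 ratios were 2.95, 4.14, 4.34, 4.10 and 3.68 on the NRCWE-044 arrays at 54 µg, against 0.79, 0.68, 2.50, 3.35 and 2.48 on the control arrays. Loess narrowed the NRCWE-044 arrays to between 4.53 and 4.64. With each array centred on its median in place of loess, the C3 change was 2.00 (adjusted p = 0.021) with NRCWE-043, 1.85 (adjusted p = 0.16) with NRCWE-044 and 1.36 (adjusted p = 1) with NRCWE-045, so that the NRCWE-044 and NRCWE-045 calls were lost. Over all features, median centring put the median change with NRCWE-043 at 0.12, against 0.01 with loess. Median centring with the slide as a block, a setting chosen after seeing the data, called C3 and Cfb in NRCWE-043 and NRCWE-044 at 54 µg, and C3 and Cfb in NRCWE-045 kept their calls there too. On slides that held both groups, the treated minus control difference of C3 was above 0 on 2 of 2 slides with NRCWE-043 (1.74 to 1.92), on 3 of 3 with NRCWE-044 (1.87 to 2.32) and on 4 of 4 with NRCWE-045 (0.36 to 1.73).

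Factor B, the protease that forms the C3-cleaving enzyme of the alternative pathway, was above every control on all 15 arrays at 54 µg. Cfb was at 4.43, 5.09, 4.88, 4.93 and 5.28 with NRCWE-043 at 54 µg, 5.11, 5.04, 5.25, 5.40 and 5.75 with NRCWE-044, and 4.71, 5.03, 4.70, 4.83 and 4.45 with NRCWE-045, against 3.78, 3.49, 3.63, 4.15 and 3.58 in controls. The lowest of these treated values, 4.43, stood against a highest control of 4.15. The group means were 4.92 ± 0.32, 5.31 ± 0.28 and 4.74 ± 0.21 (SD, n = 5 each) for NRCWE-043, NRCWE-044 and NRCWE-045, against 3.73 ± 0.26 (SD, n = 5) in controls. The rises were 1.19 (SE 0.17, adjusted p = 3.4e-05), 1.58 (SE 0.17, adjusted p = 1.8e-06) and 1.02 (SE 0.17, adjusted p = 0.014) for NRCWE-043, NRCWE-044 and NRCWE-045. Median centring gave 1.39 (adjusted p = 0.025), 1.40 (adjusted p = 0.11) and 1.04 (adjusted p = 1). Within slides the Cfb difference was above 0 on every slide that held both groups, from 0.79 to 1.27 with NRCWE-043, 1.41 to 1.82 with NRCWE-044 and 0.55 to 1.40 with NRCWE-045.

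The NRCWE-045 results for C3 and Cfb rested on single arrays more than the others did. Leaving out control array 2, control array 7 or NRCWE-045 array 8 ended both calls, with adjusted p for Cfb of 0.062, 0.059 and 0.051 and for C3 of 0.12, 0.16 and 0.089. Leaving out any of arrays 14, 28 or 32 of NRCWE-045 or control arrays 15 or 30 ended the C3 call (adjusted p 0.074 to 0.18) while Cfb kept its own. Over 31 alternatives the change ran from 0.91 to 1.45 for C3 and from 0.85 to 1.25 for Cfb. The C3 call was lost in 15 of the 31 and the Cfb call in 4.

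C2 and C4b, whose products join into the C3-cleaving enzyme of the classical pathway, did not pass against control. C2 was at 4.07, 3.88, 4.01, 4.32 and 4.05 with NRCWE-043 at 54 µg, 4.16, 4.21, 4.17, 4.04 and 4.46 with NRCWE-044, and 4.09, 4.06, 3.79, 4.13 and 4.03 with NRCWE-045, against 3.86, 3.84, 4.17, 4.00 and 3.80 in controls. The 4 groups overlapped, with changes of 0.13, 0.27 and 0.08 (adjusted p 0.74, 0.43 and 0.96) in which the widest 95% interval reached 0.63. C4b ranged from 4.16 to 4.79 with NRCWE-043, 4.17 to 4.56 with NRCWE-044 and 4.23 to 4.46 with NRCWE-045, against 4.08 to 4.36 in controls, with changes of 0.29, 0.26 and 0.17 (adjusted p 0.18, 0.31 and 0.81). Cfb, the neighbour of C2 on the chromosome, passed in these 3 comparisons and C2 did not, but the difference between their changes was not tested.

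The C1q chains, which assemble into the target-binding head of the classical pathway, did not all pass. C1qb was at 3.18, 3.78, 3.08, 4.01 and 3.85 with NRCWE-043 at 54 µg, 4.07, 3.29, 3.12, 2.52 and 3.98 with NRCWE-044, and 3.11, 3.24, 2.89, 2.80 and 2.83 with NRCWE-045, against 2.96, 2.52, 2.84, 2.63 and 2.27 in controls. The NRCWE-043 arrays lay above all controls, and array 31 of NRCWE-044 and all but 2 NRCWE-045 arrays lay among them. C1qb rose by 0.94 (SE 0.22, adjusted p = 0.0047) with NRCWE-043 and by 0.75 (SE 0.22, adjusted p = 0.033) with NRCWE-044, and its change of 0.33 with NRCWE-045 did not pass (adjusted p = 0.72). C1qa was at 3.30, 3.83, 3.59, 4.60 and 4.56 with NRCWE-043 and 4.20, 3.72, 4.07, 3.70 and 4.65 with NRCWE-044, against 3.50, 2.54, 3.55, 3.48 and 3.35 in controls. Its changes of 0.69 and 0.78 missed the threshold (adjusted p 0.075 and 0.058), although all 5 NRCWE-044 arrays lay above all 5 controls. C1qa passed in both comparisons with the deposited values (adjusted p 0.042 and 0.040), with the lung channel alone (0.012 and 0.016) and with array weights (0.045 in both). Control array 7 held the lowest C1qa value, and without control arrays 7 and 29 the changes were 0.51 and 0.60 (adjusted p 0.26 and 0.30).

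C1qc was at 2.85, 3.12, 3.27, 3.71 and 3.67 with NRCWE-043 and 3.77, 3.32, 3.49, 3.92 and 4.20 with NRCWE-044 at 54 µg, against 3.08, 2.59, 2.96, 3.50 and 3.47 in controls. Its changes were 0.20 (adjusted p = 0.62) and 0.62 (adjusted p = 0.066), and the groups overlapped. C1qc with NRCWE-043 passed with the lung channel alone (0.69, adjusted p = 0.015) and with median centring and slide as a block (0.51, adjusted p = 0.015). With the slide as a block, C1qc with NRCWE-044 changed by 0.54 and passed (adjusted p = 0.032). C1qc with NRCWE-044 passed in 10 of 31 alternatives, over which its change ran from 0.31 to 0.81. Among the 10 were the deposited values (adjusted p = 0.034) and the lung channel alone (adjusted p = 0.0067). With NRCWE-045 at 54 µg, C1qa and C1qc changed by 0.43 and 0.26 (adjusted p 0.66 and 0.79).

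Serping1 encodes the inhibitor that removes the C1 proteases from C1q. It ranged from 6.66 to 7.54 with NRCWE-043, 6.89 to 7.50 with NRCWE-044 and 6.90 to 7.35 with NRCWE-045 at 54 µg, against 7.06 to 7.50 in controls. Its changes were -0.18, 0.03 and -0.05 (adjusted p 0.56, 0.95 and 0.98), and the second probe gave -0.18, 0.08 and 0.08. The 95% intervals of the first probe lay between -0.49 and 0.35.

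Of the receptors, C3ar1 passed and C5ar1 did not. C3ar1, through which C3a acts on myeloid cells, was at -0.43, -0.04, 0.01, -0.19 and 0.42 with NRCWE-043 at 54 µg, -0.03, -0.62, -0.35, -0.46 and 0.33 with NRCWE-044, and -0.55, -0.54, -0.89, -0.31 and -0.87 with NRCWE-045, against -0.68, -0.70, -0.86, -0.83 and -0.63 in controls. The NRCWE-043 arrays were clear of the controls, the lowest NRCWE-044 array exceeded the highest control only slightly, and NRCWE-045 overlapped them. C3ar1 rose by 0.69 (SE 0.14, adjusted p = 0.0016) with NRCWE-043 and by 0.51 (SE 0.14, adjusted p = 0.026) with NRCWE-044, and changed by 0.11 (adjusted p = 0.92) with NRCWE-045. Its probe was dim, with median lung signals of 86 to 390, and lay well above background on 30 of 35 arrays: on 5 of 5 in each 54 µg group, 4 in NRCWE-043 and NRCWE-044 at 18 µg, 3 in NRCWE-045 at 18 µg and 4 in controls. C5ar1, the receptor of C5a on neutrophils and macrophages, ranged from 0.63 to 1.33 with NRCWE-043, 0.30 to 1.09 with NRCWE-044 and 0.31 to 1.20 with NRCWE-045 at 54 µg, against 0.24 to 1.15 in controls. Its changes were 0.20, -0.08 and -0.16 (adjusted p 0.64, 0.90 and 0.92).

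In NRCWE-044 at 54 µg the C1qb and C3ar1 calls depended on a few arrays, while C3 and Cfb lost theirs with median centring only, among 31 alternatives. Without array 4 the changes were 0.58 for C1qb (adjusted p = 0.14) and 0.47 for C3ar1 (adjusted p = 0.082), and without array 34 they were 0.61 (adjusted p = 0.15) and 0.38 (adjusted p = 0.14). These arrays had the highest adipocyte marker means, 4.54 and 4.03. The calls also ended without single controls: C1qb without array 7, 29 or 30 (adjusted p 0.079, 0.056 and 0.086), and C3ar1 without array 15 or 29 (adjusted p 0.067 and 0.055). Over 31 alternatives for C1qb and 30 for C3ar1, each lost its call in 13. Without all 6 arrays above 2 on that measure, an alternative chosen after seeing the data, C1qb changed by 0.33 (adjusted p = 0.46) and C3ar1 by 0.27 (adjusted p = 0.47), whereas C3 rose by 1.89 (adjusted p = 0.0013) and Cfb also passed (adjusted p = 0.0002). In NRCWE-043 at 54 µg C3, Cfb, C1qb and C3ar1 were each called without the same 6 arrays, with C1qb at 0.73 (adjusted p = 0.017). On slides that held both groups, the NRCWE-044 difference from control was 0.25 to 1.32 for C1qb and 0.17 to 0.66 for C3ar1, above 0 on 3 of 3 slides, and the NRCWE-043 difference was 0.44 to 0.71 and 0.26 to 0.77, above 0 on 2 of 2. With the slide as a block C3ar1 in NRCWE-044 changed by 0.47 and did not pass (adjusted p = 0.055), and with median centring 0 genes passed there. Without control arrays 7 and 29 the NRCWE-044 changes were 0.71 for C1qb (adjusted p = 0.14) and 0.50 for C3ar1 (adjusted p = 0.11).

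**Figure D3:**
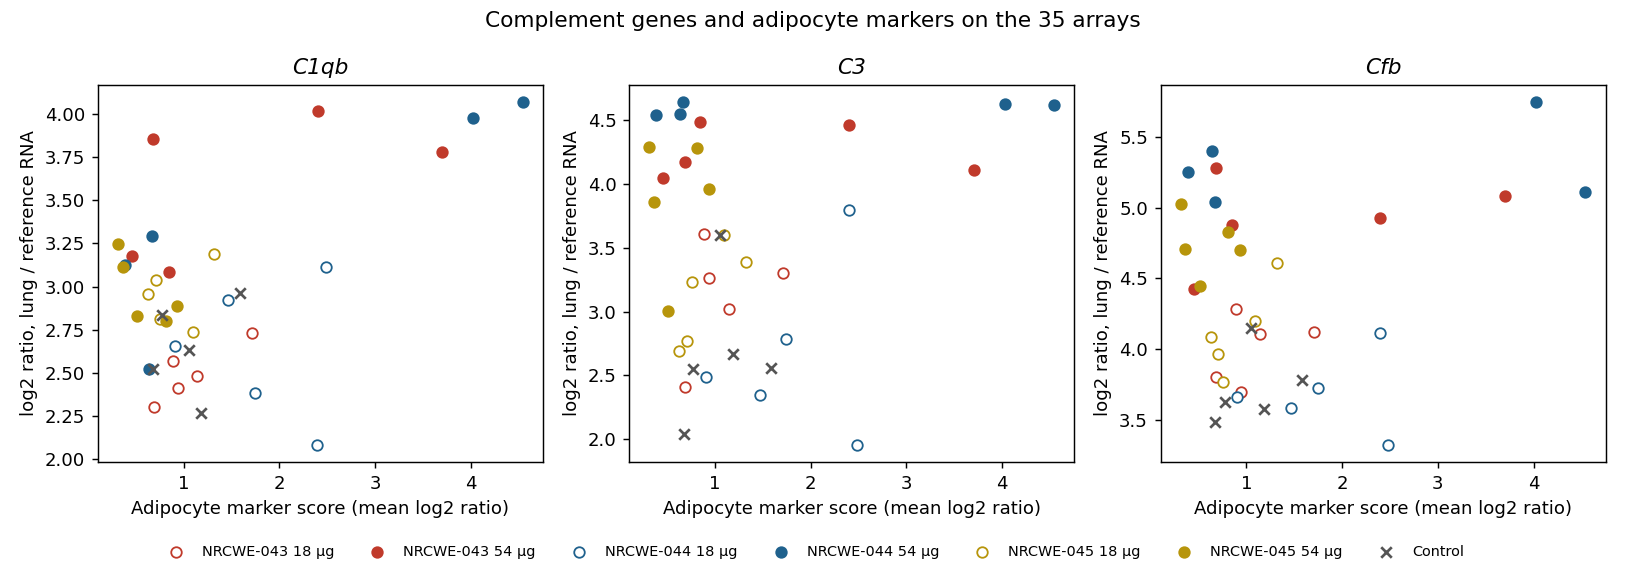
Log2 ratio of lung to reference RNA for C1qb, C3 and Cfb on each array (y) against the mean log2 ratio of 8 adipocyte markers on that array (x); filled circles are 54 µg, open circles 18 µg and crosses controls. NRCWE-044 arrays 4 and 34 at 54 µg lie far right, at 4.54 and 4.03, and are the highest of their group for C1qb, while controls lie between 0.68 and 1.58.

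Counted over the 10 genes, 4 were higher and 0 lower with NRCWE-043 at 54 µg, where 5.4% of all features were higher; 4 were higher and 0 lower with NRCWE-044, where 3.94% of features were higher; and 2 were higher and 0 lower with NRCWE-045, where 0.29% were higher. All 5 treated arrays lay above all 5 controls for 4, 4 and 1 of the 10 genes with NRCWE-043, NRCWE-044 and NRCWE-045, against 4.49%, 3.78% and 1.67% of all features. The median change of the 10 genes was 0.49, 0.57 and 0.22, against 0.01 over all features in each comparison. These 3 comparisons share their control arrays.

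**Figure D4:**
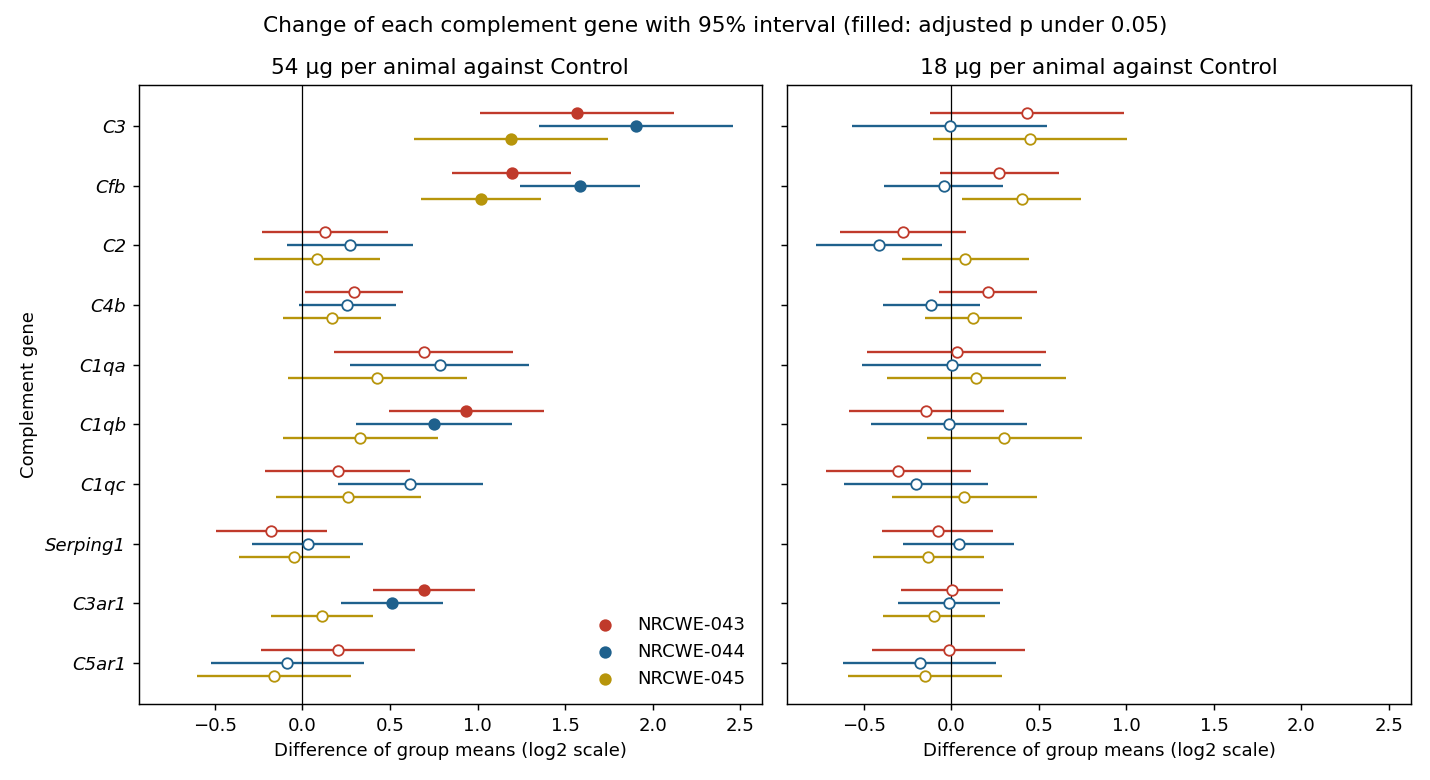
Log2 change against control of each complement gene (points) with 95% intervals (lines), for NRCWE-043, NRCWE-044 and NRCWE-045 at 18 and 54 µg. At 54 µg C3 and Cfb stand apart from 0 in all 3 materials, with changes of 1.02 to 1.91, and Serping1 lies between -0.18 and 0.03.

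At 18 µg, 0 of the 10 genes passed against control in limma's test in any material, where 4.25% of all features passed in either direction with NRCWE-043, 0% with NRCWE-044 and 0% with NRCWE-045. At an unadjusted p under 0.05 there were 0 genes with NRCWE-043, 1 with NRCWE-044 and 1 with NRCWE-045. The share of all features at this unadjusted threshold is not given, here or below. Such counts therefore cannot be weighed against the shares of features that passed after adjustment. C3 was at 2.41, 3.60, 3.26, 3.30 and 3.02 with NRCWE-043, 1.96, 2.79, 2.49, 2.35 and 3.80 with NRCWE-044, and 3.23, 2.69, 3.60, 2.77 and 3.39 with NRCWE-045. These values overlapped the controls, which ran from 2.04 to 3.60, and the changes were 0.43 (adjusted p = 0.40), -0.01 (adjusted p = 0.98) and 0.45 (adjusted p = 1). Cfb changed by 0.28, -0.04 and 0.40 (adjusted p 0.38, 0.94 and 1). C2 with NRCWE-044 was at 3.05, 3.56, 3.51, 3.90 and 3.59, against 3.80 to 4.17 in controls, a change of -0.41 that did not pass (adjusted p = 0.43). Over the 15 arrays at 18 µg, C1qa ran from 2.57 to 3.96, C1qb from 2.09 to 3.19 and C1qc from 2.26 to 3.66, against 2.54 to 3.55, 2.27 to 2.96 and 2.59 to 3.50 in controls. C3ar1 ran from -1.05 to -0.57 at 18 µg, against -0.86 to -0.63 in controls, and C4b from 3.70 to 4.83, against 4.08 to 4.36.

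Between doses of the same material, C3 and Cfb were higher at 54 than at 18 µg for NRCWE-043 and NRCWE-044. For NRCWE-043 the 54 µg group exceeded the 18 µg group by 1.13 for C3 (SE 0.27, adjusted p = 0.034), 0.92 for Cfb (SE 0.17, adjusted p = 0.0085), 1.08 for C1qb (SE 0.22, adjusted p = 0.013) and 0.69 for C3ar1 (SE 0.14, adjusted p = 0.014). These 4 of 10 genes compare with 0.92% of all features higher. Each of the 4 calls was lost without 18 µg array 5: C3 then differed by 0.96 (adjusted p = 0.20), Cfb by 0.87 (adjusted p = 0.061), C1qb by 1.03 (adjusted p = 0.068) and C3ar1 by 0.72 (adjusted p = 0.061). The C3 call was also lost without any of 54 µg arrays 9, 16, 19 or 22 (adjusted p 0.053, 0.087, 0.10 and 0.058), the C1qb call without array 19 (adjusted p = 0.059) and the C3ar1 call without array 22 (adjusted p = 0.052). Without arrays 5, 6 and 10 together, an alternative chosen after seeing the data, Cfb and C3ar1 passed. With median centring 0 of the 10 genes passed.

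For NRCWE-044, 6 of 10 genes were higher at 54 than at 18 µg, where 4.82% of all features were higher. C3 differed by 1.92 (adjusted p = 4e-05), Cfb by 1.63 (adjusted p = 5.7e-07), C1qc by 0.82 (adjusted p = 0.011), C1qb by 0.76 (adjusted p = 0.028), C2 by 0.69 (adjusted p = 0.014) and C3ar1 by 0.53 (adjusted p = 0.020). C2 was at 4.16, 4.21, 4.17, 4.04 and 4.46 at 54 µg, against 3.05, 3.56, 3.51, 3.90 and 3.59 at 18 µg, with no overlap. C1qc was at 3.77, 3.32, 3.49, 3.92 and 4.20 at 54 µg, against 2.88, 2.94, 3.00, 3.07 and 2.70 at 18 µg, also with no overlap. The share of all features without overlap between these doses is not given here, so the lack of overlap only describes these 2 genes. C2 and C1qc had not passed against control at either dose. Without 18 µg array 6, C2 differed by 0.57 and did not pass (adjusted p = 0.054). C1qb did not pass without array 4, 11 or 23 (adjusted p 0.12, 0.071 and 0.081), nor C3ar1 without array 4 (adjusted p = 0.067). C3 and Cfb alone were called without array 34, and likewise without the 6 arrays with high adipocyte markers.

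For NRCWE-045, 0 of 10 genes passed between doses, where 0% of features passed, and 2 had an unadjusted p under 0.05. C3 differed by 0.74 (95% interval 0.19 to 1.29, adjusted p = 1) and Cfb by 0.62 (95% interval 0.28 to 0.96, adjusted p = 0.94). Whether the dose difference itself varied between materials was tested for 3 pairs of materials, and 0 of 10 genes passed in limma's test, as did 0% of all features. At an unadjusted p under 0.05 there were 1, 2 and 5 genes for NRCWE-044 minus NRCWE-043, NRCWE-045 minus NRCWE-043 and NRCWE-045 minus NRCWE-044. The share of all features at that unadjusted threshold is not given, so these counts do not set the 10 genes apart. The lowest adjusted p was 0.91, for Cfb, whose dose difference was smaller by 1.01 with NRCWE-045 than with NRCWE-044 (95% interval of the signed difference -1.49 to -0.53).

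**Figure D5:**
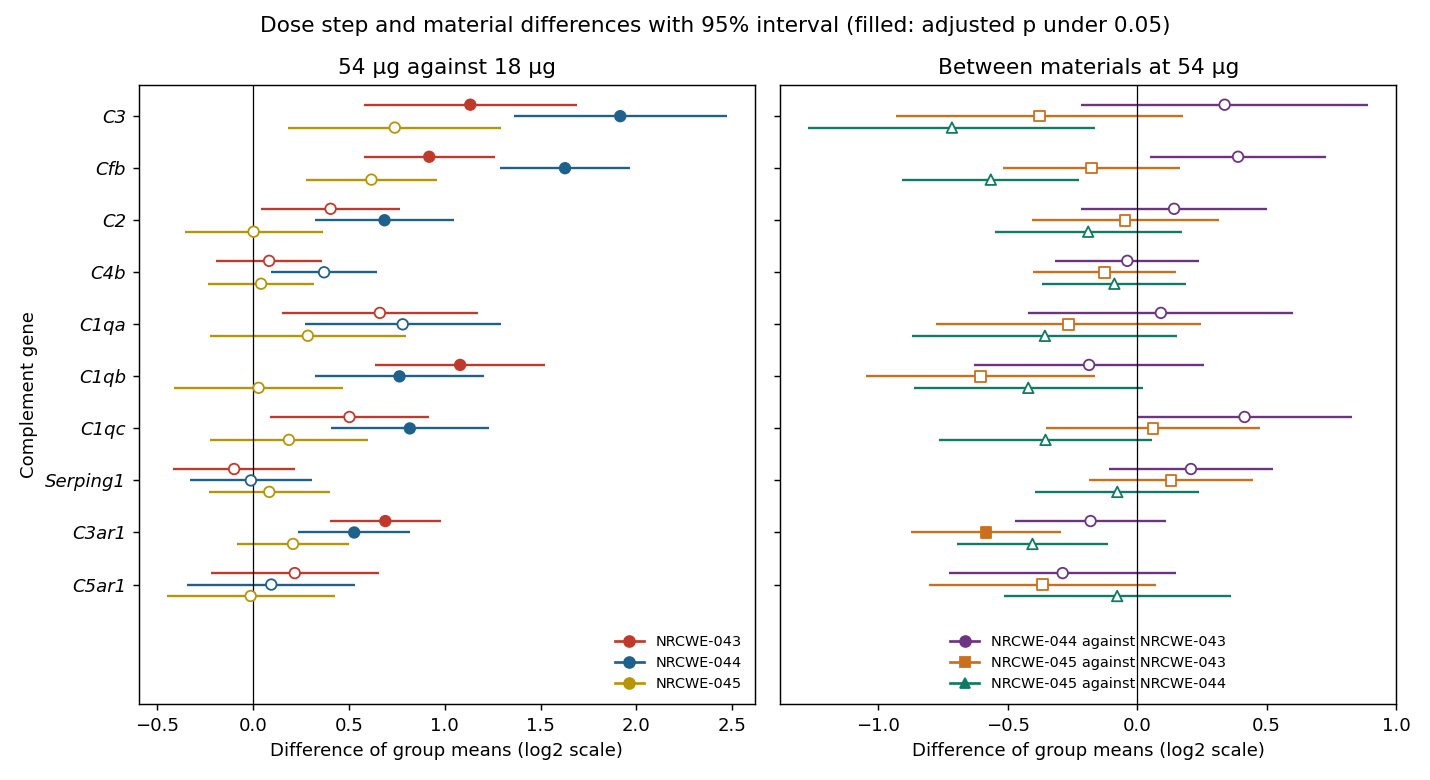
Differences of group means on the log2 scale (points, filled where the adjusted p was under 0.05) with 95% intervals (lines) for each complement gene, between 54 and 18 µg of each material on the left and between materials at 54 µg on the right. C3 and Cfb with NRCWE-044 lie farthest right in the dose panel, at 1.92 and 1.63, and C3ar1 in NRCWE-045 against NRCWE-043, at -0.58, is the filled point of the material panel.

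The materials were compared in 3 pairs at each dose. At 54 µg, C3ar1 was lower with NRCWE-045 than with NRCWE-043, by a log2 difference of -0.58 (SE 0.14, 95% interval -0.88 to -0.29, adjusted p = 0.0093), which made 1 of 10 genes lower where 1.54% of all features were lower. Of the 5 NRCWE-045 arrays, 1 (at -0.31) lay inside the NRCWE-043 range. The call was lost without NRCWE-043 array 22. C1qb differed between these materials by -0.61 (95% interval -1.05 to -0.16, adjusted p = 0.11) and C3 by -0.38 (95% interval -0.93 to 0.18, adjusted p = 0.58). Median centring ended the C3ar1 call too. P-values were adjusted over the features of each pair and not over the 6 pairs.

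Between NRCWE-044 and NRCWE-043 at 54 µg, 0 of 10 genes passed in either direction, where 7.64% of all features did, and 2 had an unadjusted p under 0.05. Cfb differed by 0.39 (95% interval 0.05 to 0.73, adjusted p = 0.19), C1qc by 0.41 (95% interval 0.00 to 0.83, adjusted p = 0.27) and C3 by 0.34 (95% interval -0.22 to 0.89, adjusted p = 0.59). Between NRCWE-045 and NRCWE-044 at 54 µg, 0 of 10 genes passed, where 0% of features did, and 3 had an unadjusted p under 0.05. C3 differed by -0.72 (95% interval -1.27 to -0.16, adjusted p = 0.65), Cfb by -0.57 (95% interval -0.91 to -0.22, adjusted p = 0.38) and C3ar1 by -0.40 (95% interval -0.70 to -0.11, adjusted p = 0.59). These intervals leave room for differences of more than 1.5-fold, so the results do not show that the materials act alike on these genes. At 18 µg, 0 of 10 genes passed in each of the 3 pairs, where 10.9% of all features passed between NRCWE-044 and NRCWE-043, 8.56% between NRCWE-045 and NRCWE-043 and 0.454% between NRCWE-045 and NRCWE-044. At an unadjusted p under 0.05 there were 1, 1 and 2 genes in these pairs.

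Of 35 other complement genes listed, 26 were tested. With NRCWE-043 at 54 µg, 3 were higher and 1 lower, and with NRCWE-044 at 54 µg 4 were higher and 0 lower, while with NRCWE-045 at 54 µg 0 of 26 passed in limma's test (5 at an unadjusted p under 0.05). Of all features, 5.4%, 3.94% and 0.29% were higher and 4.93%, 2.06% and 0.0352% lower in these comparisons. C1ra, a protease of the C1 complex, rose by 0.67 (adjusted p = 0.00021) with NRCWE-043 and by 0.68 (adjusted p = 0.00032) with NRCWE-044. Properdin (Cfp), which stabilises the C3-cleaving enzyme of the alternative pathway, rose by 0.86 (adjusted p = 0.037) and 1.25 (adjusted p = 0.0037), and Cfi, the protease that inactivates C3b, by 0.66 (adjusted p = 0.011) and 0.76 (adjusted p = 0.0061). Cfi had 1 tested probe, which was dim, with an average log2 intensity of 6.50 over both channels, against 10.98 for C1ra and 11.02 for Cfp. Itgax, a chain of complement receptor 4, rose by 0.50 (adjusted p = 0.031) with NRCWE-044. The median change of the 26 genes was 0.16 with NRCWE-043, 0.20 with NRCWE-044 and -0.01 with NRCWE-045, against 0.01 over all features.

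Itgam, a chain of complement receptor 3, gave no settled direction. Its brightest probe was lower with NRCWE-043 at 54 µg by a change of -1.34 (adjusted p = 0.00013), and at 18 µg by -1.27 (adjusted p = 0.00064), the only call among the 26 genes at 18 µg against control, but 2 dimmer probes were higher at 54 µg by 0.79 (adjusted p = 0.015) and 0.25 (adjusted p = 0.044). With NRCWE-044 at 54 µg these dimmer probes changed by 0.84 (adjusted p = 0.014) and 0.13 (adjusted p = 0.41). The 1 lower gene counted above with NRCWE-043 at 54 µg is thus Itgam by its brightest probe alone. Among genes that did not pass, factor D (Cfd), which activates factor B and is a product of fat cells, changed by 1.21, 1.68 and -1.34 with NRCWE-043, NRCWE-044 and NRCWE-045 at 54 µg (adjusted p 0.64, 0.53 and 0.86). Its arrays ran from 0.33 to 7.67 with NRCWE-043 and from 0.43 to 8.38 with NRCWE-044, against 0.83 to 4.48 in controls. Cfd is itself 1 of the 8 adipocyte markers. The C5 gene Hc changed by -0.29, 0.12 and -0.00, and C5ar2, the second C5a receptor, by 0.15, -0.14 and -0.06.

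Between doses of NRCWE-044, 6 of the 26 genes, against 4.82% of all features, were higher at 54 than at 18 µg: C1ra, Cfp, Cfi, Clu, Itgax and Itgb2. Clusterin (Clu), an inhibitor of the membrane attack complex, differed by 0.60 (adjusted p = 0.028), Itgax by 0.81, and Itgb2, the chain shared by complement receptors 3 and 4, by 0.77 (adjusted p = 0.045). For NRCWE-043, 1 of the 26, Cfp, was higher, by 1.05 (adjusted p = 0.045), against 0.92% of all features.

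Markers of leukocytes moved in some of the same comparisons, in which 5.4%, 3.94% and 0.29% of all features were higher and 4.93%, 2.06% and 0.0352% lower with NRCWE-043, NRCWE-044 and NRCWE-045 at 54 µg. Of 10 listed markers of monocytes and interstitial macrophages 9 were tested; 4 rose and 1 fell with NRCWE-043 at 54 µg, 4 rose and 0 fell with NRCWE-044, and 0 passed with NRCWE-045. Ccr2, the monocyte chemokine receptor, rose by 1.16 (adjusted p = 0.0016) with NRCWE-043 and 1.03 (adjusted p = 0.0075) with NRCWE-044, and Fcgr1, an Fc receptor, by 0.97 (adjusted p = 0.0045) and 1.02 (adjusted p = 0.0046). Their mean log2 ratio per array ran from 1.74 to 2.27 with NRCWE-043, 1.82 to 2.51 with NRCWE-044 and 1.54 to 1.96 with NRCWE-045, against 1.41 to 1.65 in controls. Of 10 neutrophil markers 5 rose and 1 fell with NRCWE-043, 1 rose with NRCWE-044 and 0 passed with NRCWE-045; their array means were 1.95 to 2.21, 1.70 to 2.66 and 1.24 to 2.59, against 0.88 to 2.39 in controls. Of 9 tested alveolar macrophage markers, 0 rose and 3 fell with NRCWE-043 (with changes of -0.82 for Ear2, -0.50 for Krt79 and -0.41 for Pparg), 1 (Car4, by 0.65) rose and 0 fell with NRCWE-044, and 0 passed with NRCWE-045. The median change of the 9 markers was above 0 in each, at 0.17 with NRCWE-043, 0.14 with NRCWE-044 and 0.05 with NRCWE-045. Array means of these markers were 3.67 to 4.39, 4.03 to 4.77 and 3.89 to 4.29, against 3.73 to 4.31 in controls. Fabp4 is on this list and on the adipocyte list. The highest NRCWE-044 means, 4.77 and 4.63, were on arrays 4 and 34, which had high adipocyte markers. Hepatocyte marker means, of interest because liver makes complement, ran from 0.40 to 0.71, 0.35 to 0.76 and 0.28 to 0.54 at 54 µg, against 0.24 to 1.63 in controls, with 3 to 9 of the 10 markers above background on an array. Control array 7 alone gave the 1.63, and control arrays 2, 15, 29 and 30 ran from 0.24 to 0.47. Among 8 tested hepatocyte markers, Hpx rose with NRCWE-043 (0.80, adjusted p = 0.029) and Apoa2 fell with NRCWE-044 (-0.74, adjusted p = 0.012). The part of these cells in the complement results was not tested. The 9 tested lung markers, such as Sftpc, were above background on every array, and 1 of them, Scgb1a1, fell with NRCWE-043 (-0.83, adjusted p = 0.0055).

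Over the 35 arrays, the log2 ratios of C3 and Cfb correlated at r = 0.92, and at 0.63 after each group's mean was taken out. C1qa correlated with C1qc at 0.81 (0.76 within groups) and with C1qb at 0.78 (0.65 within groups), and C1qb with C1qc at 0.55 (0.27 within groups). The genes whose log2 ratios were most like those of C3, among 15297 candidates, were Ccdc167 (r = 0.94), Lilr4b, Cxcl10 and Dok2 (0.93 each) and Timp1 (0.93). For C1qa they were Ltb4r1 and C1rb (0.80 each), Ifit2 (0.78), and Ifi211 and Fcgr3 (0.76 each). These are descriptions: the arrays share groups, slides and the reference RNA.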

How the data were processed

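Cy5 carried lung RNA and Cy3 the reference RNA on 35 two-colour arrays, from 200 ng of RNA per the labels' protocols. The spot intensities, per the file headers, were extracted from the scans with Agilent Feature Extraction 11.0.1.1 and are not normalized. The series values deposited by the authors are log2 ratios of Cy5 to Cy3, used as an alternative; the sources used here do not give how the authors normalized them. Background correction of the median intensities by normexp with an offset of 50 was followed by loess within arrays, in limma 3.58.1 (R 4.3.3; data.table package 1.17.8). Control and marked spots had weight 0. Of 59305 spots per array besides 3671 control spots, spots of a probe were averaged. A total of 34326 probes passed the filter on dim probes, and the brightest probe stood for each gene, named through the RefSeq annotation of GRCm38.p6 (27235 of 55681 probes had a symbol).

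Linear models with moderated variance (limma eBayes) over all 35 arrays gave changes, SE, 95% intervals and p-values for 15 comparisons and 3 differences between dose effects. P-values were adjusted over 25534 features within each comparison by the Benjamini-Hochberg method, with 0.05 as the threshold for a call. The number of arrays limits the precision. The text names the 10 genes, other complement genes called against control plus 6 named in any case (1 of them not reported here), the 5 genes most like C3 and C1qa, and up to 4 markers per cell list. The genes, lists, rule and alternatives were chosen with earlier results of these data known, and 3 alternatives were added after seeing the data. The scripts were tested on simulated data.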

Additional observations from a re-analysis of the deposited data

Results flagged for a closer look

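C4b on control array 15 was at 4.36, away from the other 4 controls at 4.08 to 4.14; this gap is 0.769 of the range of the group. C1qa on control array 7 was at 2.54, below the other controls at 3.35 to 3.55, a gap of 0.798 of the range; the same array had the high Hmox1. Of 70 sets of 5 arrays examined, these 2 had a sample that far from the rest, and chance gives about 1 in 20. Without control arrays 7 and 29, 2 genes (C3 and Cfb) passed with NRCWE-044 at 54 µg. The effect on C3ar1 differed between materials at 54 µg, with NRCWE-045 minus NRCWE-043 at -0.58 by limma's test of the difference.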

How the results depend on the processing

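Of 2781 values of the 90 gene results under 56 alternatives, 2645 kept direction and side of the threshold, 97 lost a call, 39 gained one and 0 reversed. With NRCWE-043 at 54 µg against control, C3, Cfb and C1qb were called in 31 of 31 alternatives and C3ar1 in 30 of 30, with C3 between 1.36 and 2.00. With NRCWE-045 at 54 µg, 2 genes were called, but 1 with a normexp offset of 16, deposited values, scale normalization, the Cy5 channel alone, no filter on dim probes or a fit of only the groups compared, and 0 with median centring. With NRCWE-044 at 54 µg, 4 were called, but 0 with median centring and 2 with only the groups compared, without control arrays 7 and 29, without arrays 2, 4, 18, 29 and 34, without arrays 4, 6, 9, 19, 23 and 34, or with median centring and slide as a block, which gave 7 for NRCWE-043. For the NRCWE-043 dose step, 4 became 0 with median centring, 1 with only the groups compared, 2 without arrays 5, 6 and 10 and 7 with median centring and slide; for the NRCWE-044 dose step, 6 became 2 with median centring with or without slide, without arrays 2, 4, 18, 29 and 34, or without the adipocyte-high arrays. For NRCWE-045 against NRCWE-043 at 54 µg, 1 became 0 with median centring, the Cy5 channel alone, the filter on all arrays (which leaves C3ar1 untested) or a 1.5-fold threshold, 2 with array weights or without arrays 2, 4, 18, 29 and 34, and 4 with median centring and slide. For NRCWE-044 against NRCWE-043, 0 became 3 with median centring and slide at both doses, and 1 with the Cy5 channel alone at 18 µg; for NRCWE-045 against NRCWE-043 at 18 µg, 0 became 1 with only the groups compared.

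Leaving out 1 array at a time gave 4 to 5, 2 to 5 and 0 to 2 calls for NRCWE-043, NRCWE-044 and NRCWE-045 at 54 µg against control, 0 to 4 and 2 to 7 for the dose steps of NRCWE-043 and NRCWE-044, and 0 to 1 for NRCWE-045 against NRCWE-043 at 54 µg; the other comparisons stayed at 0. The lowest counts came without NRCWE-044 arrays 4 or 34, without NRCWE-043 arrays 5 (18 µg) or 22, and, for NRCWE-045, without array 8 or control arrays 2 or 7. Over all features, calls with NRCWE-043, NRCWE-044 and NRCWE-045 at 54 µg numbered 2638, 1531 and 83, against 528, 44 and 0 with median centring, which put the median change of all features with NRCWE-043 at 0.12, against 0.01 with loess. They numbered 1611, 70 and 80 without arrays 2, 4, 18, 29 and 34, 1472, 392 and 184 without the adipocyte-high arrays, 1188, 697 and 49 at 1.5-fold and 896 with NRCWE-044 without control arrays 7 and 29. Arrays 2 and 29 are controls, and arrays 4, 18 and 34 are NRCWE-044 at 54 µg. The 70 calls with NRCWE-044 thus rest on fewer arrays in both groups. With NRCWE-045 they ran up to 345, with array weights. The causes were not tested. No paired analysis was possible because the labels number the arrays 1 to 35 and groups share no replicate number; slides, which did hold several groups, were fitted as a block instead. C3ar1 and C5ar1 were dim, as was Cfi among the other complement genes, which limits their precision.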
